A study of Homo sapiens with 9 samples.

Results

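The genes that encode the heterogeneous nuclear ribonucleoproteins (hnRNP genes) and the genes named after an RNA-binding motif (RBM genes) were followed in RNA bound by the nuclear and the cytoplasmic poly(A) binding proteins. A gene was taken when it was protein coding in the deposited tables and its symbol began with HNRNP, or was RBM followed by digits and at most 1 letter. This gave 59 genes, 24 hnRNP and 35 RBM, of 51274 genes listed in all and of 18872 protein coding genes. The rule used names only and no measured value, and genes of either family without a row in the tables used here were not analysed here. HNRNPA1 and RBM12 are not among the 59 genes.

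Heterogeneous nuclear ribonucleoproteins coat nascent transcripts in the nucleus, where they steer splice site choice, RNA stability and export, and many of them shuttle to the cytoplasm. RBM is a naming convention rather than a lineage: most of its genes share the RNA recognition motif, and they encode spliceosome components, splicing regulators, subunits of the m6A writer, factors of nuclear RNA decay and nucleolar proteins. PABPN coats the poly(A) tail of RNA in the nucleus, and PABPC coats it in the cytoplasm, where it takes part in translation and mRNA turnover. A measurement of RNA bound by either protein therefore says with which of them the transcripts of a gene were found, and not where the encoded protein acts.

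The samples were wildtype HEK293T cells, an established human embryonic kidney line, crosslinked with 0.1% formaldehyde for 10 min. The 9 libraries were 3 of input RNA from total cell lysate, 3 of RNA immunoprecipitation (RIP) with an antibody to PABPN and 3 with an antibody to PABPC, all from the same 3 biological replicates, with each lysate divided between the antibodies. Libraries were depleted of ribosomal RNA, stranded, and read as single ends of 75 nt. The reads assigned to the listed genes, estimated from the deposited values, were 36500000 to 52200000 per library, which is not the full sequencing depth. No library of a control antibody was used here.

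Each gene had 1 mean normalised read count per group, obtained here from the deposited mean over the 6 libraries of a table and the deposited fold change, with the PABPC table set to the input level of the PABPN table. Single libraries were not analysed here, and each log2 fold change is given with its deposited standard error (SE). This SE is an estimate from the authors' DESeq2 model and not the observed spread of the replicates. A gene was called enriched or depleted in a RIP at a log2 fold change against input beyond 0.5 in size with a deposited adjusted p of at most 0.01, among genes with a mean above 50. The difference between the RIPs, given as PABPN minus PABPC on the log2 scale, was called at the same limits after a two-sided normal test on both SEs with Benjamini-Hochberg adjustment. Reads in introns and exons were counted together, so spliced and unspliced RNA cannot be told apart, nor can fewer molecules in a RIP be told from weaker binding of each. Fold changes, SEs and adjusted p-values against input are those of the authors' DESeq2 tables and were not refitted here. Of the 24 hnRNP genes 20 passed the limit of 50 in both tables. Of the 35 RBM genes 33 passed it in the PABPC table and 32 in both.

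The poly(A) tail that both proteins bind is added at the 3′ end of the transcript, so the last 30 bases of the GENCODE canonical transcript (GRCh38) are shown for members at the extremes of the results below and for 1 pair of paralogues. The hexamers AATAAA and ATTAAA, the common signals for cleavage and tail addition, are in capitals. HNRNPA0 (chr5:137745651-137745680, minus strand), HNRNPAB (chr5:178211134-178211163, plus strand), HNRNPH1 (chr5:179614178-179614207, minus strand), HNRNPH2 (chrX:101414104-101414133, plus strand), RBM42 (chr19:35637656-35637685, plus strand), RBM3 (chrX:48581133-48581162, plus strand), RBM20 (chr10:110839439-110839468, plus strand) and RBM6 (chr3:50077220-50077249, plus strand) read, from 5′ to 3′:
HNRNPA0: ctgtAATAAActttagccatgagtacgata
HNRNPAB: gcttttgaAATAAAatttaaaaacccccaa
HNRNPH1: gtcaAATAAAtcctccttttaaaaactgca
HNRNPH2: ataaatcttccttttaaaaactggaaaaaa
RBM42: ccagtttcAATAAAtttacgttcatttcca
RBM3: cttAATAAAcatttctaatatgctgtgaaa
RBM20: agatttttAATAAAgagaatttgaaagctg
RBM6: cttttttaAATAAActttttttcaatgtga

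The hexamer AATAAA stood in this window, on the transcribed strand, in 11 of the 20 hnRNP genes tested and in 21 of the 32 RBM genes, against 59.4% of 12450 protein coding genes. ATTAAA without AATAAA stood there in 4 hnRNP and 3 RBM genes, against 14.3%. Neither was present in 5 hnRNP genes, 8 RBM genes and 26.3% of protein coding genes, which says only that these letters are not in the last 30 annotated bases. The windows of HNRNPH1 and HNRNPH2, whose proteins are close relatives, shared a run of 15 bases, while their values in the RIPs lay far apart as given below.

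More of the hnRNP genes were depleted from PABPN than enriched with it, and more were enriched with PABPC than depleted from it. In the PABPN RIP 13 of the 20 hnRNP genes (65%) were depleted and 0 were enriched, where 14.6% of all genes and 16.5% of protein coding genes were depleted and 17.5% and 15.1% were enriched. Their median log2 fold change was -0.82, against -0.04 over all genes and -0.09 over protein coding genes. In the PABPC RIP 12 of the 20 (60%) were enriched and 0 were depleted, where 38.4% of all genes and 41.2% of protein coding genes were enriched and 32.4% and 27.9% were depleted. Their median there was 0.67, against 0.14 over all genes and 0.25 over protein coding genes.

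Between the RIPs, 18 of the 20 hnRNP genes (90%) were higher with PABPC and 0 were higher with PABPN. Over all genes 33.4% were higher with PABPC and 36.1% with PABPN, and over protein coding genes 37.8% and 30.6%. The median difference of the hnRNP genes was -1.33 on the log2 scale, against 0.07 over all genes and -0.12 over protein coding genes. All 20 values lay below 0, from -2.75 for HNRNPA1P48 to -0.14 for HNRNPH1.

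**Figure D1:**
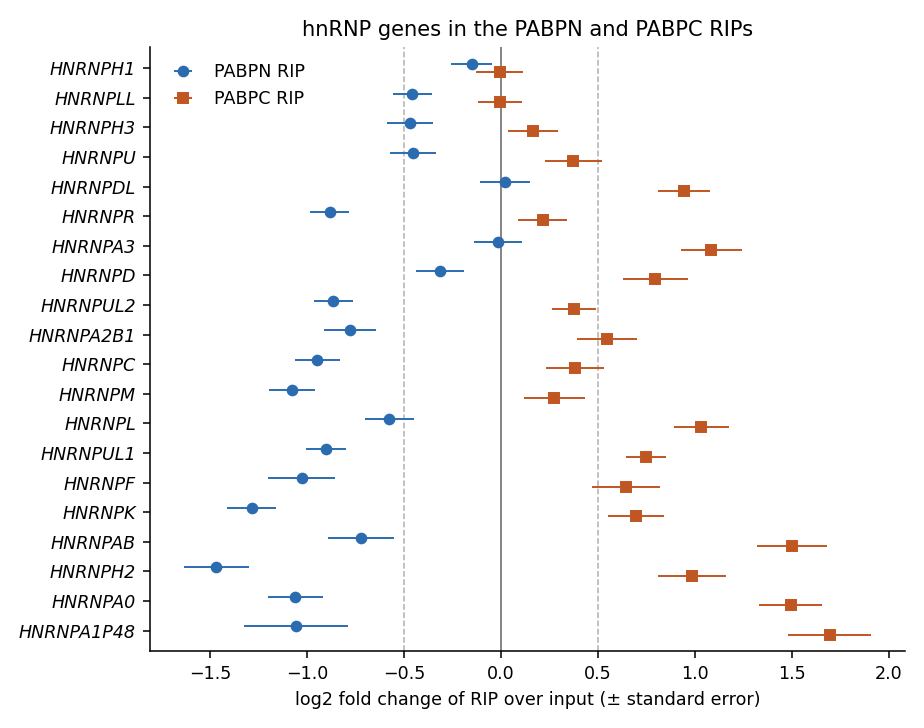
The 20 hnRNP genes tested are ordered by the difference between the RIPs, with the log2 fold change over input on the horizontal axis for the PABPN RIP (circles) and the PABPC RIP (squares). Bars are the deposited SE and dashed lines mark 0.5 and -0.5. From HNRNPH3 downwards each square lies to the right of its circle by more than both bars, and HNRNPH1 at the top has the closest pair.

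The A/B proteins package pre-mRNA and carry a pair of RNA recognition motifs each. HNRNPA2B1, which also sorts RNAs for transport, had a mean of 29610.2 normalised reads in input, 17252 with PABPN and 43293 with PABPC. It was depleted from PABPN (log2 -0.78, SE 0.13) and enriched with PABPC (0.55, SE 0.16). HNRNPA0, a binder of AU-rich mRNAs whose gene has no intron, stood at 3974, 1905 and 11203 normalised reads in the same order. Its PABPN mean was 2.09 times below input and its PABPC mean 2.82 times above it, and the RIPs differed 5.88-fold (difference -2.56 ± 0.21 on the log2 scale, adjusted p = 1.16e-31). HNRNPA3 was not called in the PABPN RIP (-0.016, SE 0.12) and was 2.12 times above input in the PABPC RIP, a difference of -1.10 ± 0.20. Between HNRNPA0 and HNRNPA3 the fold changes differed by -1.04 ± 0.19 in the PABPN RIP and by 0.41 ± 0.22 in the PABPC RIP.

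HNRNPA1P48 is listed as protein coding in the tables and as a retrogene of the A/B family in the reference, and its reads may be shared with near-identical copies. Its means were 114 normalised reads in input, 55.0 with PABPN and 371 with PABPC. It had the lowest difference of the hnRNP genes (-2.75 ± 0.34). Its assignment to 1 gene is uncertain, and the medians without it are given with the alternatives.

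HNRNPD (AUF1), which binds AU-rich mRNAs and directs their decay, and its relatives HNRNPDL and HNRNPAB were all enriched with PABPC. For HNRNPD the means were 11383 in input, 9141 with PABPN and 19762 with PABPC, a change against input of -0.32 (SE 0.12) and 0.80 (SE 0.17). HNRNPDL had 9353, 9495 and 18015 normalised reads, and with 0.022 (SE 0.13) it had the highest hnRNP value in the PABPN RIP. HNRNPAB stood apart from both, with 6193, 3752 and 17556 normalised reads. It was depleted from PABPN (-0.72, SE 0.17) and 2.83 times above input with PABPC. The difference between the RIPs was -2.23 ± 0.25 for HNRNPAB, -1.11 ± 0.21 for HNRNPD and -0.92 ± 0.19 for HNRNPDL.

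The F/H proteins bind runs of guanines near splice sites. HNRNPH1 was called in no comparison, with means of 21196 in input, 19082 with PABPN and 21099 with PABPC and changes of -0.15 (SE 0.11) and -0.0069 (SE 0.12). HNRNPH2, whose mean fell from 2997 in input to 1083 with PABPN and reached 5946 with PABPC, was 2.77 times below input and 1.98 times above it. The former was the lowest PABPN value of the hnRNP genes. The paralogues differed by -1.32 ± 0.20 in the PABPN RIP and by 0.99 ± 0.21 in the PABPC RIP. HNRNPF lay on the side of HNRNPH2, at 13645, 6692 and 21380.1 normalised reads, depleted from PABPN (-1.03, SE 0.17) and enriched with PABPC (0.65, SE 0.18). HNRNPH3 was called in neither RIP (-0.47, SE 0.12, and 0.16, SE 0.13), and its difference of -0.64 ± 0.18 passed the limits.

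HNRNPK, which binds runs of cytosines through KH domains, had 19891 normalised reads in input, 8154 with PABPN and 32290.4 with PABPC. It was depleted 2.44-fold from PABPN and enriched 1.62-fold with PABPC, a difference of -1.98 ± 0.19. HNRNPL, which binds CA repeats, had 9403, 6309 and 19249.6 normalised reads and a difference of -1.61 ± 0.19. HNRNPLL, its relative that acts in the splicing of CD45 in lymphocytes, was called in no comparison. Its means were 2700.0, 1967 and 2689.8, and its change with PABPN was -0.46 (SE 0.10), just inside the limit of 0.5. HNRNPL and HNRNPLL differed by 1.04 ± 0.18 in the PABPC RIP and by -0.12 ± 0.16 in the PABPN RIP.

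HNRNPC, HNRNPM, HNRNPR and HNRNPUL2 were depleted from PABPN and not called with PABPC. HNRNPC, which binds uridine tracts and keeps Alu elements out of mRNA, fell from 26666 normalised reads in input to 13828 with PABPN and stood at 34752 with PABPC (-0.95, SE 0.12, and 0.38, SE 0.15). HNRNPM, a splicing regulator, had 15134, 7165 and 18331 normalised reads, 2.11 times below input with PABPN. HNRNPR, a relative of SYNCRIP, had 13756, 7450.4 and 15969, with -0.88 (SE 0.10) in the PABPN RIP. The PABPC changes of HNRNPM and HNRNPR, 0.28 (SE 0.16) and 0.22 (SE 0.13), were within 2 SE of 0. All 4 were higher with PABPC than with PABPN, by -1.10 to -1.35 on the log2 scale as PABPN minus PABPC.

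HNRNPU, a scaffold protein that also binds chromatin, had 39916 normalised reads in input, 29139 in the PABPN RIP and 51746 in the PABPC RIP. It was called in neither RIP (-0.45, SE 0.12, and 0.37, SE 0.15) but in the difference (-0.83 ± 0.19). Its relatives, both linked to the response to DNA damage, moved further from input with PABPN. HNRNPUL1 had 11704, 6260.1 and 19631 normalised reads and a difference of -1.65 ± 0.15. HNRNPUL2 had 4069, 2235 and 5277 and a difference of -1.24 ± 0.15.

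The remaining 4 hnRNP genes are retrocopies of HNRNPC and were under the limit of 50. HNRNPCL1 had a mean of 4.50 over the libraries of the PABPN table and 14.7 over those of the PABPC table. HNRNPCL2 was listed at 0 in the PABPN table and at 0.402 in the PABPC table, and HNRNPCL3 and HNRNPCL4 were listed at 0 in both.

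The RBM genes fell on both sides. In the PABPN RIP 5 of 32 (15.6%) were enriched and 5 (15.6%) depleted, shares near those of protein coding genes, and their median log2 fold change was 0.11. In the PABPC RIP 11 of 33 (33.3%) were enriched and 9 (27.3%) depleted, with a median of -0.03 that moved to -0.17 once centred on the median of all genes. Between the RIPs 12 of 32 (37.5%) were higher with PABPN and 9 (28.1%) higher with PABPC, with a median of 0.05 that turned to -0.018 under the same centring. These shares lay within 10 percentage points of those of protein coding genes. The differences ran from -2.88 for RBM42 to 2.48 for RBM20, 18 of them above 0 and 14 below, where all 20 of the hnRNP genes were below.

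**Figure D2:**
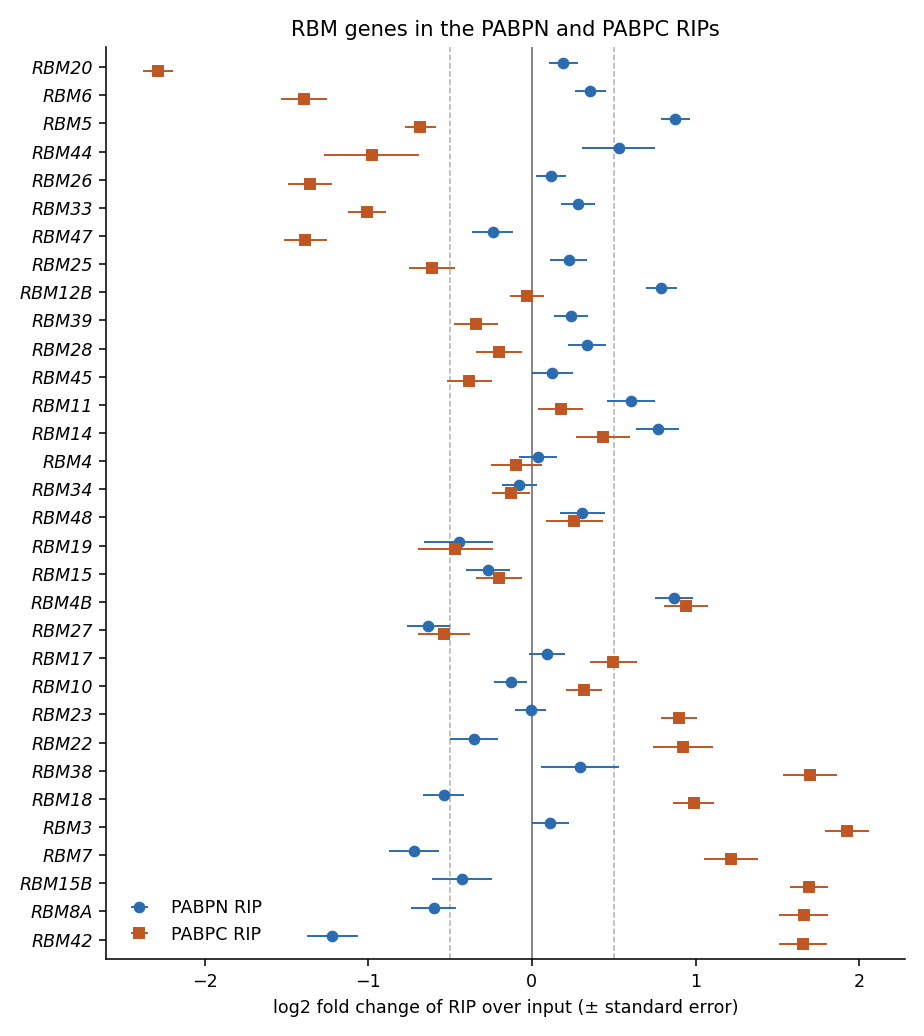
The 32 RBM genes tested in both tables are ordered by the difference between the RIPs, with the log2 fold change over input on the horizontal axis for the PABPN RIP (circles) and the PABPC RIP (squares). Bars are the deposited SE and dashed lines mark 0.5 and -0.5. The squares run from -2.29 for RBM20 to 1.93 for RBM3, while the circles stay between -1.22 for RBM42 and 0.88 for RBM5.

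RBM20, the splicing factor of titin in heart muscle, was the furthest on the PABPN side. Its means were 19152 normalised reads in input, 21891 with PABPN and 3920.5 with PABPC. The transcripts were not called in the PABPN RIP (0.19, SE 0.086) and were 4.88 times below input in the PABPC RIP, a difference of 2.48 ± 0.13 (adjusted p = 5.78e-84). RBM47, a cofactor of the APOBEC1 RNA editing enzyme, had 685, 581 and 262 normalised reads in the same order and was 2.61 times below input with PABPC. RBM44, known from germ cells, was low at 128, 185 and 65.1 and had a difference of 1.51 ± 0.37, the widest error of the RBM genes tested. RBM11, a splicing factor of brain and testis, was enriched with PABPN (0.61, SE 0.15) and not called with PABPC (0.18, SE 0.14) or in the difference.

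RBM5, RBM6 and RBM10 are related regulators of exon skipping, and RBM10 stood apart from the other two. RBM5 rose from 8035 normalised reads in input to 14759.6 with PABPN and fell to 5006 with PABPC. It had the highest PABPN change of the RBM genes (0.88, SE 0.089) and was depleted from PABPC (-0.68, SE 0.094). RBM6 stood at 12041, 15425 and 4587 normalised reads, and its PABPC mean was 2.63 times below input. RBM10 was called in no comparison, at 4543, 4151 and 5665 normalised reads with a difference of -0.45 ± 0.15. In the difference between the RIPs RBM5 lay 2.01 ± 0.20 and RBM6 2.20 ± 0.23 above RBM10. The loci of RBM5 and RBM6 overlap, and 49.3% of the exonic bases of RBM5 lie within the span of other annotated genes, on either strand.

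RBM4 and RBM4B, a pair of adjacent splicing regulator genes, differed from each other by -0.83 ± 0.16 in the PABPN RIP and by -1.04 ± 0.21 in the PABPC RIP. RBM4B was enriched with PABPN (0.87, SE 0.12) and with PABPC (0.94, SE 0.14), with means of 664, 1212 and 1276 normalised reads. RBM4 was called in neither, at 5885, 6033 and 5515. The differences between the RIPs did not pass the test, with 95% intervals of -0.25 to 0.51 for RBM4 and -0.43 to 0.28 for RBM4B. RBM14, a coactivator found in paraspeckles and a neighbour of the pair, was enriched with PABPN (0.77, SE 0.13) and not called with PABPC (0.44, SE 0.16).

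Among the spliceosome genes, RBM42 and RBM8A were furthest on the PABPC side. RBM42, a tri-snRNP protein, had 1306 normalised reads in input, 561 with PABPN and 4118 with PABPC. It was 2.33 times below input with PABPN, 3.15 times above it with PABPC and 7.34 times higher with PABPC than with PABPN (difference -2.88 ± 0.21, adjusted p = 1.81e-40), the widest gap of all members. RBM8A (Y14), a core subunit of the exon junction complex, had 3051, 2011 and 9666 normalised reads and differed 4.80-fold. RBM22, a component of the activated spliceosome, was enriched with PABPC (0.92, SE 0.18) and not called with PABPN (-0.35, SE 0.15).

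RBM39 and RBM23 are paralogues related to the splicing factor U2AF2, and they were called on opposite sides of the difference. RBM39 had 15409, 18173 and 12160.0 normalised reads in input, PABPN and PABPC and a difference of 0.58 ± 0.17. RBM23 had 3156, 3139 and 5889 and a difference of -0.91 ± 0.15, and it was enriched 1.87-fold with PABPC. RBM25, a splicing factor that works with the U1 snRNP, was depleted from PABPC (-0.61, SE 0.14) and higher with PABPN than with PABPC by 0.83 ± 0.18. RBM17, which acts at 3′ splice sites, and RBM48, of the minor spliceosome, were called in no comparison. RBM17 missed the limit of 0.5 narrowly with PABPC (0.498, SE 0.15).

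RBM15 and RBM15B, which recruit the m6A writer to RNA, differed from each other with PABPC. RBM15B, whose gene has no intron, rose from 2973 normalised reads in input to 9612 with PABPC, 3.23-fold, and had 2214 with PABPN. RBM15 had 7007 in input, 5826 with PABPN and 6098 with PABPC and was called in no comparison. The paralogues differed by 1.89 ± 0.18 in the PABPC RIP and by -0.16 ± 0.23 in the PABPN RIP.

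RBM7, RBM26 and RBM27 act in the decay of nuclear RNA, RBM7 as a subunit of the NEXT complex and the paralogues RBM26 and RBM27 with the PAXT machinery for polyadenylated RNA. The 3 genes went separate ways. RBM7 had 559.7 normalised reads in input, 339.7 with PABPN and 1303 with PABPC, depleted in the former (-0.72, SE 0.16) and enriched in the latter (1.22, SE 0.17). RBM26 was not called with PABPN (0.12, SE 0.092) and was 2.56 times below input with PABPC, at 16093, 17451 and 6276 normalised reads. RBM27 was depleted in both RIPs, -0.63 (SE 0.13) with PABPN and -0.54 (SE 0.16) with PABPC, and did not pass the test of the difference (-0.095 ± 0.21).

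RBM3, which is induced by cold and supports translation, had the highest PABPC value of the RBM genes. Its means were 5841 normalised reads in input, 6317 with PABPN and 22205 with PABPC, and it was not called in the PABPN RIP (0.11, SE 0.12) and 3.80 times above input in the PABPC RIP. RBM38, a p53 target that acts on mRNA stability, followed the same order with 1294, 1586 and 4206 normalised reads and was enriched 3.25-fold with PABPC and not called with PABPN (0.29, SE 0.24). Its paralogue RBM24, a muscle splicing factor, passed the limit of 50 in the PABPC table only, where it was enriched (1.12, SE 0.27) at a mean of 80.0 normalised reads, against 46.4 in the PABPN table.

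The nucleolar genes RBM19, RBM28 and RBM34, which act in ribosome synthesis, were called in neither RIP. RBM28 alone of these passed the limits of the difference, at 0.54 ± 0.18 on the log2 scale. The differences of RBM19 and RBM34 were 0.020 ± 0.31 and 0.051 ± 0.16, and 75.6% of the exonic bases of RBM34 lie within the span of the annotated gene ARID4B.

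Of the other RBM genes, RBM33, a partner of the m6A demethylase ALKBH5, had 11699.8, 14218 and 5819.8 normalised reads in input, PABPN and PABPC and was depleted from PABPC (-1.01, SE 0.11). RBM12B was enriched with PABPN (0.79, SE 0.10) and not called with PABPC (-0.030, SE 0.11). RBM18 was depleted from PABPN (-0.54, SE 0.13) and enriched with PABPC (0.99, SE 0.13), with means of 1219, 839 and 2421. RBM45, a neural protein, was called in neither RIP and lay just past the limit of the difference (0.51 ± 0.18, adjusted p = 0.00813). RBM43 and RBM46 were under the limit of 50 in both tables, with means between 3.42 and 6.17 normalised reads.

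Other genes of the splicing machinery gave a scale for these counts. Of protein coding genes 15.1% were enriched with PABPN and 16.5% depleted, and 41.2% were enriched with PABPC and 27.9% depleted. Between the RIPs 37.8% of protein coding genes were higher with PABPC and 30.6% with PABPN. Of 33 core spliceosome genes, among them subunits of the snRNPs, U2AF, SF3A, SF3B and the Prp19 complex, 21 were depleted from PABPN and 0 enriched, 20 were enriched with PABPC and 1 was depleted, and 24 were higher with PABPC than with PABPN and 1 was lower. Their median difference was -1.58, with SNRPD2, an Sm protein, lowest (-3.64 ± 0.19) and U2AF1, which recognises the 3′ splice site, highest (2.57 ± 0.32). The counts of U2AF1 are uncertain, since hg38 holds a near-identical copy of it. Of 12 genes for hnRNP proteins under other symbols, 5 were depleted from PABPN and 1 enriched, 7 were enriched with PABPC and 1 depleted, and 9 were higher with PABPC and 2 with PABPN. PCBP1, a poly(C) binding protein related to HNRNPK, was the lowest of these in the difference (-2.83 ± 0.26), and PTBP2, the neural polypyrimidine tract binding protein, the highest (2.44 ± 0.16). Of 12 SR proteins, splicing activators, 5 were enriched with PABPN and 1 depleted, 9 were enriched with PABPC and 0 depleted, and 6 were higher with PABPC and 2 with PABPN, from SRSF3 (-2.55 ± 0.25) to SRSF11 (0.89 ± 0.17).

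**Figure D3:**
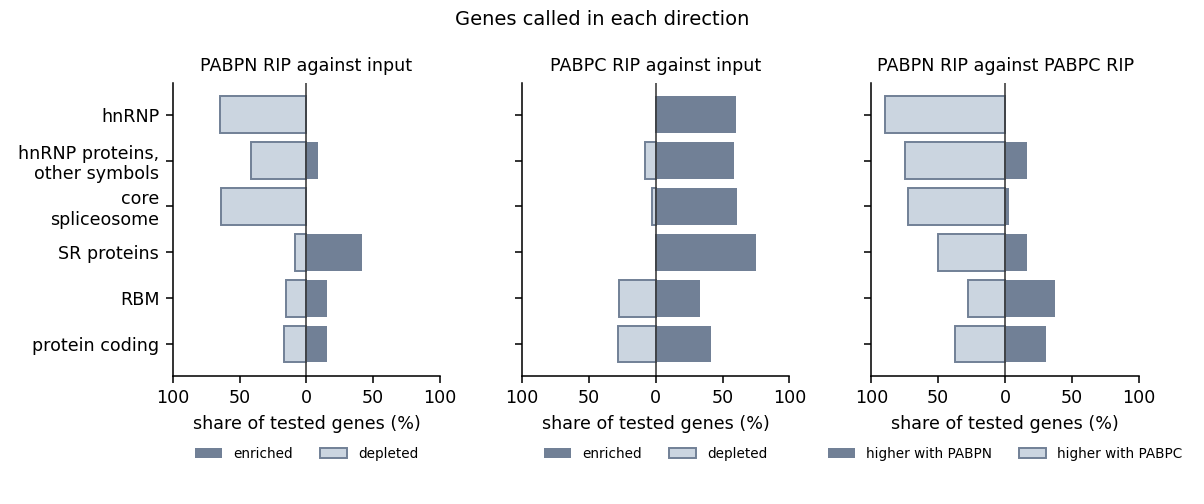
Bars give the percent of tested genes called in each direction in the PABPN RIP against input, the PABPC RIP against input and between the RIPs, for the 20 hnRNP genes, 12 genes of hnRNP proteins under other symbols, 33 core spliceosome genes, 12 SR protein genes, the RBM genes (32, and 33 with PABPC) and all protein coding genes. The hnRNP bars lie on 1 side of 0 in every panel, whereas the RBM bars extend to both sides as those of protein coding genes do. The core spliceosome bars come close to those of the hnRNP genes. With PABPN 63.6% were depleted and 0% enriched, and with PABPC 60.6% were enriched and 3.03% depleted. Between the RIPs 72.7% were higher with PABPC and 3.03% with PABPN.

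The hnRNP and RBM genes also differed in structure. The canonical transcripts of the tested genes had a median of 9.43 kb of introns among the hnRNP genes, 19.1 kb among the RBM genes and 27.4 kb among protein coding genes, with median coding lengths of 1304, 1685 and 1449 bases. Over the 32 RBM genes intron length ranked with the PABPC change at a Spearman rho of -0.78 and with the difference at 0.63, close to -0.77 and 0.63 over 12450 protein coding genes. Over the 20 hnRNP genes these were -0.29 and -0.03, and -0.50 and 0.13 without HNRNPA1P48, for which the annotated transcript spans 91.8 kb of intron. These are descriptions across genes that share all libraries, and reads in introns add to the counts of long genes.

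Among genes with more than 30 kb of introns, 9 of 12 RBM genes lay on the PABPN side of the test and 0 on the PABPC side, against 50.3% and 15.8% of 5913 protein coding genes. In the same class 0 of 6 hnRNP genes were higher with PABPN and 5 were higher with PABPC: HNRNPA1P48, HNRNPC, HNRNPM, HNRNPR and HNRNPUL1. Apart from HNRNPA1P48, whose assignment is uncertain, these hnRNP genes had 31.8 to 57.1 kb of introns, and the RBM genes 30.7 to 201 kb. The RBM genes of up to 57.1 kb in this class had differences of 0.54 (RBM28), 0.58 (RBM39), -0.45 (RBM10) and 1.51 (RBM44). Among genes with at most 10 kb, 6 of 11 RBM genes and 10 of 11 hnRNP genes were higher with PABPC, against 67.7% of 3234 protein coding genes. In this class 1 RBM gene, RBM12B, and 0 hnRNP genes were higher with PABPN, against 9.06%. The class limits were chosen after the values had been seen.

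**Figure D4:**
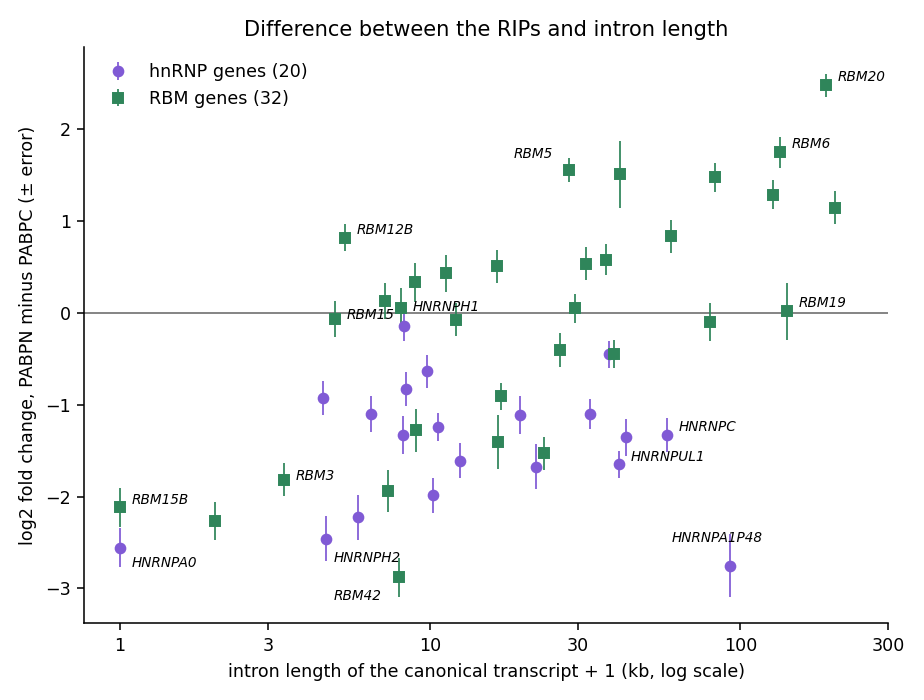
Each point is 1 of the 20 hnRNP genes (circles) or 32 RBM genes (squares), with the intron length of the canonical transcript plus 1 kb on a log axis and the difference between the RIPs, PABPN minus PABPC on the log2 scale, with its error as bars. Every RBM gene above 1 on the vertical axis lies to the right of 20 kb. The hnRNP genes all lie below 0, but apart from HNRNPA1P48 at 91.8 kb they reach only 57.1 kb of introns. The RBM genes reach 201 kb.

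Levels are not set against each other between genes, since reads in introns are part of the counts and exonic length leaves introns out. The authors removed stretches shared by overlapping genes before counting. In the reference used here more than 30% of the exonic bases of 11 members lay within the span of another gene, on either strand. These members were HNRNPA3, HNRNPAB, HNRNPH3, HNRNPUL1, RBM3, RBM4B, RBM5, RBM8A, RBM12B, RBM15B and RBM34. How many of these bases were left out of the authors' counts was not tested. For RBM15B the deposited exonic length, 6624 bases, equals that of its whole canonical transcript.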

How the data were processed

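RNA from input, PABPN RIP and PABPC RIP of HEK293T cells, 3 libraries each grouped by sample title, was compared through the 2 tables the authors deposited, each of 3 RIPs against 3 inputs. The authors aligned reads to hg38 with STAR, counted introns and exons together with featureCounts 2.0.2 (minimum overlap 20) on an annotation without stretches shared by overlapping genes, removed genes with transcription from upstream, and ran DESeq2. The deposited signal is the mean over 6 libraries of counts divided by DESeq2 size factors of the authors. The deposited log2 columns hold the fold change and its SE. A deposited score gives the Wald statistic, and a pair of deposited p-value columns gives its p before and after adjustment. These comparison columns are the authors' own, and the design formula was not stated.

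Computed here were group means, with PABPC means raised by the median input shift of 0.23 (log2), and calls. The two-sided normal test of the difference between the RIPs covered 14581 genes. It was tried on simulated data with independent errors, which did not include the sharing of inputs. Counts and medians were taken per family, with no test over genes. The inputs shared by both tables make the error of the difference too large rather than too small. Reads assigned to genes per library were estimated from size factors and group means, and the median SE was 0.14 in each table. Gene structures and 3′ ends came from GENCODE release 44. The tools were Python 3.11.15, pandas 2.3.3, numpy 2.4.6, scipy 1.17.1 and matplotlib 3.10.9. The members and lists were chosen with earlier results of these data known. The rule for named genes took all tested hnRNP genes, the 8 highest and 8 lowest RBM genes in the difference, the 3 highest and 3 lowest in each table and the paralogue sets, and the other RBM genes were named to account for every member. Alternatives were a limit of 1 on the log2 scale, a Wald test against 0.5, a mean above 200, an adjusted p of 0.05, centring on the median, taking out the shared input variance, and leaving out members with pseudogenes.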

Additional observations from a re-analysis of the deposited data

Results flagged for a closer look

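The genes given here passed the limits in both RIPs with opposite signs, and the difference between the RIPs was itself tested. The share of all genes that did so was not computed, so the list is not a result about either family. All but 1 were depleted from PABPN and enriched with PABPC, with a difference, PABPN minus PABPC on the log2 scale, of -2.75 for HNRNPA1P48, -2.56 for HNRNPA0, -2.46 for HNRNPH2, -2.23 for HNRNPAB, -1.98 for HNRNPK, -1.67 for HNRNPF, -1.65 for HNRNPUL1, -1.61 for HNRNPL and -1.33 for HNRNPA2B1. Among the RBM genes it was -2.88 for RBM42, -2.26 for RBM8A, -1.94 for RBM7 and -1.53 for RBM18. RBM5 was the exception, enriched with PABPN and depleted from PABPC, with a difference of 1.56. HNRNPA1P48 has reads that near-identical copies may share. Of the exonic bases 83.1% of RBM8A, 56.7% of HNRNPUL1, 49.3% of RBM5 and 49.2% of HNRNPAB lie within the span of other annotated genes, on either strand. For each of the others it is less than 30%. Introns were counted too, and of the whole gene span 53.8% of HNRNPA2B1 and 29.1% of HNRNPK overlap other genes. The part of either in these values was not tested.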

How the results depend on the processing

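Counts that were 0 say little when the limits are made stricter, and of the 69 recomputed values of other results 52 kept their direction and stayed within the limits set for a change. With a limit of 1 on the log2 scale, 6 hnRNP genes were depleted from PABPN and 5 enriched with PABPC, and of the RBM genes 0 were enriched with and 1 was depleted from PABPN, 7 were enriched with and 5 depleted from PABPC, and 7 were higher with PABPN than with PABPC. With a Wald test against 0.5, 8 hnRNP genes were depleted from PABPN and 6 enriched with PABPC, while 1 RBM gene was enriched with and 1 depleted from PABPN, 5 were depleted from PABPC, and 6 were higher with PABPN than with PABPC. Shares of all genes under the alternative limits were not computed, so these counts show only how the calls depend on the limits. The number of hnRNP genes higher with PABPC than with PABPN, 18, lay between 15 and 19 with other limits, centring and error, and it was not recomputed with members left out. Centring on the median of all genes turned the median difference of the RBM genes to -0.018 and moved their PABPC median to -0.17. Leaving out members with a pseudogene of their name moved the hnRNP medians to -0.97 with PABPN and -1.66 in the difference. Why was not tested beyond what each setting does by construction. Leaving out HNRNPA1P48, an alternative added after the data had been seen, gave hnRNP medians of -0.78 with PABPN, 0.65 with PABPC and -1.33 in the difference. No paired analysis was possible because the tables hold no values of single libraries, and for the same reason leaving out each replicate in turn was not run. The 7 members under the mean of 50 in a table were not tested there, and what sets their low values was not tested.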

Other observations

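Noncoding genes beside the members, chosen after their values had been seen, gave values of their own. RBM15-AS1, an antisense lncRNA at RBM15, was depleted from PABPC (-0.76, SE 0.13) and not called in the PABPN RIP (0.026, SE 0.12), a difference between the RIPs of 0.79 ± 0.18. HNRNPD-DT, a lncRNA transcribed divergently from HNRNPD, stood at 0.18 (SE 0.22) with PABPN and at -1.01 (SE 0.28) with PABPC, a difference of 1.20 ± 0.35. Its means were low, 99.1 normalised reads in the PABPN comparison and 59.5 in the PABPC comparison, near the limit of 50. RBM26-AS1 did not pass the limits of the difference (0.64 ± 0.31). Pseudogenes named after HNRNPK, HNRNPL and HNRNPU were under the mean of 50 in both tables.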
